A study of Homo sapiens with 6 samples.

Results

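Collagen genes were described in LNCaP, an established prostate cancer cell line that responds to androgen, with and without knockdown of the retinoblastoma protein RB. A member was any row of the count table whose transcript ID belongs to a protein-coding gene with a symbol of the form COL, number, A, number. This gave 42 collagen genes among 22279 transcript IDs, each with 1 row. The members were selected by their symbols, but the family and its splits by collagen type and by chromosome 21 were chosen from the shRB and shCON values of these same libraries. Differences between the groups are therefore given as descriptions, with no p-value for a collagen gene. Of the 42 members, 16 had enough counts to enter the fit, 16 had between 1 and 47 counts over the 6 libraries, and 10 had none. COL6A5 and COL19A1 were not analysed here.

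The shRB group was 3 libraries of LNCaP cells carrying a hairpin against RB, and the shCON group was 3 libraries carrying a control hairpin. Both groups received the treatment that the labels call CDT for 72 h, recorded as causing cell cycle arrest, and the series places the cells in hormone-deficient conditions, although the growth note gives hormone-proficient medium unless stated otherwise. The labels name 1 hairpin per group and do not say whether replicates were separate cultures, so the spread between libraries may be technical and hairpin and knockdown effects cannot be told apart. Values of single libraries are listed in the order of their replicate numbers. RB1 itself was at 56.5, 52.7 and 54.7 CPM (the usual count scaled to sequencing depth, here after TMM normalisation) in shCON and at 5.82, 3.82 and 5.41 CPM in shRB, a log2 fold change of -3.43 ± 0.13 (SE; edgeR quasi-likelihood test, Benjamini-Hochberg adjusted p = 2.4e-09). Library totals ran from 6115310 to 20091488 counts.

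Collagens are secreted or membrane proteins built from 3 chains wound into a triple helix, which needs regularly spaced glycines and hydroxylated prolines. Fibrillar collagens form the cables of connective tissue, collagen IV forms the sheet-like network of basement membranes, and collagen VI forms beaded microfibrils that link matrix and cells. FACIT collagens sit on the surface of fibrils, and collagen VII anchors epithelium to the matrix below. In the prostate most fibrillar collagen is made by stromal cells, while the epithelium rests on a basement membrane.

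The prostate luminal identity of the cells was visible in the counts: all 9 luminal markers listed were tested, and their summed level was 4822 to 5157 CPM in shCON and 4601 to 5121 CPM in shRB. Of 13 fibroblast and smooth muscle markers, 10 were in the table and 2 had enough counts to be tested. Their summed level was 6.62 to 8.81 CPM in shCON and 7.28 to 9.75 CPM in shRB. The 2 tested, TAGLN and MYH11, had 261 and 205 counts over all 6 libraries, and neither passed. Of the others, PDGFRB had 35 counts, FBLN1 22, decorin DCN and FAP 3 each, and DPT and MFAP5 1 each. PDGFRA and POSTN were at 0 in every library. Of 8 endothelial markers, PECAM1, CDH5, KDR and TEK were at 0 in every library, while ESAM had 51 counts, CLDN5 28 and EMCN 15. The endothelial sum was 8.81 to 12.2 CPM in shCON and 2.91 to 4.88 CPM in shRB. VWF held 8.16 to 10.7 CPM of it in shCON and 1.73 to 3.71 CPM in shRB, and the part of this signal in the collagen results was not tested. In a bulk sample, fewer cells expressing a collagen and less of its RNA per cell cannot be told apart.

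The sequences that precede the starts of 6 collagen genes are shown because these genes carry the main contrasts. COL12A1, COL5A1, COL26A1 and COL6A2 were at least 2-fold lower in shRB, and COL7A1 was higher. COL4A5 was lower, and it shares its start region with COL4A6, which has few counts and did not pass. Whether COL4A5 and COL4A6 differ in their change was not tested. Each is the 250 bases upstream of the start in RefSeq (GRCh38.p14), 5′ to 3′ on the gene's own strand. They lie at chr6:75206054-75206303 on the minus strand (COL12A1), chr9:134641553-134641802 on the plus strand (COL5A1), chr7:101362625-101362874 on the plus strand (COL26A1), chr21:46097862-46098111 on the plus strand (COL6A2), chr3:48595330-48595579 on the minus strand (COL7A1) and chrX:108439588-108439837 on the plus strand (COL4A5). Capitals mark GC boxes (GGGCGG on either strand) in the first 5, and in COL4A5 the 121 bases that also lie upstream of COL4A6, which is read the other way.
COL12A1: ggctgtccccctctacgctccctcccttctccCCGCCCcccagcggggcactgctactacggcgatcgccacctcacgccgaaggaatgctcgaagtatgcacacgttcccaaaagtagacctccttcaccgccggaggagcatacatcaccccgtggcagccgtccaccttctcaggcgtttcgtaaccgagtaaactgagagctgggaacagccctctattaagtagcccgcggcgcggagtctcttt
COL5A1: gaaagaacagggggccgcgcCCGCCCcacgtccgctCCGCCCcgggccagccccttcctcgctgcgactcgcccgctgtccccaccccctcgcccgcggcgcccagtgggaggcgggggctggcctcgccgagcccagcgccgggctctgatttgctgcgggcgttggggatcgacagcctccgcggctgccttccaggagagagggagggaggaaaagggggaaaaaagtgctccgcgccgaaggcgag
COL26A1: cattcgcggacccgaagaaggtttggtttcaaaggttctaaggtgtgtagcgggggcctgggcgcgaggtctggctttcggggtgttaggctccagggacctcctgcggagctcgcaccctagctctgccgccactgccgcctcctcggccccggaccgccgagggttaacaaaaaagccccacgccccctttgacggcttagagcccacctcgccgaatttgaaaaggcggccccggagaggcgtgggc
COL6A2: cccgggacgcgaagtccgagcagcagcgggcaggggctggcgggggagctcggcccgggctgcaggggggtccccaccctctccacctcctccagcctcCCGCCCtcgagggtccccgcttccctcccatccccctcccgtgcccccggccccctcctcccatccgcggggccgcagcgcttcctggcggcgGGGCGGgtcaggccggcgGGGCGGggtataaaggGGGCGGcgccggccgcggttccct
COL7A1: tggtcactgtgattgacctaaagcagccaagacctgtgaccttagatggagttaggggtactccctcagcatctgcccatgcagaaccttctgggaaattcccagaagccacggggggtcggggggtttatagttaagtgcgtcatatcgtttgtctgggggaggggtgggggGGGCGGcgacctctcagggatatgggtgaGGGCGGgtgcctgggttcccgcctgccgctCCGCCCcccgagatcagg
COL4A5: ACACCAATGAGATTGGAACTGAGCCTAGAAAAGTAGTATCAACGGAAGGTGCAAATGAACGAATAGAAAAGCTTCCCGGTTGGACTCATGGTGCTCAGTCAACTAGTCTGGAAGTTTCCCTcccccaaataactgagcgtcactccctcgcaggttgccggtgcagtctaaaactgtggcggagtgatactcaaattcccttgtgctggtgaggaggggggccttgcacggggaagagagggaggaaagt

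RefSeq windows were at hand for 11 of the 16 tested collagen genes, and not for COL1A1, COL3A1, COL5A2, COL6A1 and COL9A3. Their G and C content ran from 44.0% upstream of COL4A6 to 88.4% upstream of COL18A1, and 9 of the 11 lay above the median of all 27305 windows (58.0%). A GC box was found in 8 of the 11 windows and in 42.3% of all windows, with 9 copies upstream of COL18A1, 4 upstream of COL6A2 and none upstream of COL26A1, COL4A5 or COL4A6. A TATA box (TATAAA on either strand) was found upstream of COL6A2 and COL7A1, and in 11.1% of all windows. The E2F letters TTTCCCGC, TTTCGCGC, TTTGGCGC or TTTGCCGC were in none of the 11 windows and in 2.79% of all, and the AP-1 letters TGANTCA in none of the 11 and in 6.6% of all, both searched on both strands. Matches overlapping one another were each counted. GC boxes stood both upstream of COL7A1 (3 copies), which was higher in shRB, and upstream of COL5A1 (2 copies), which was lower.

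LNCaP cells transcribed a narrow set of collagens, led by 2 chains of collagen VI. Per kilobase of transcript, which allows levels to be compared between genes, COL6A1 stood at 66.4 ± 2.54 and COL6A2 at 36.4 ± 2.00 CPM per kb in shCON (SD, n = 3 for all levels in this paragraph). COL4A5 followed at 13.8 ± 0.26, COL18A1 at 8.08 ± 0.31, COL9A2 at 6.82 ± 0.37, COL26A1 at 6.24 ± 0.40 and COL5A2 at 4.78 ± 0.31 CPM per kb. COL9A3 (3.07 ± 0.22), COL1A1 (2.59 ± 0.25) and COL12A1 (2.21 ± 0.39) came next. The last 6 were COL5A1, COL3A1, COL4A2, COL4A6, COL16A1 and COL7A1, at 0.23 to 0.43 CPM per kb. The libraries of COL9A2 and COL26A1 overlapped, as did those of COL1A1 and COL12A1, of COL5A1 and COL3A1, and of each neighbouring pair among the last 4, so their order is not resolved.

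Several collagens lacked the partner chain with which they are known to assemble. COL1A2, the second chain of collagen I, had 0 counts in all 6 libraries beside 1039 counts of COL1A1. COL6A3, the third chain of collagen VI, was at 0 beside 12656 counts of COL6A1 and 5921 of COL6A2, and COL6A6 had 2 counts in all. COL9A1 was at 0 beside COL9A2 and COL9A3, and COL4A1 had 1 count beside 109 of COL4A2. A count of 0 allows up to 3 counts over a group, which is 0.083 CPM in shCON and 0.097 CPM in shRB, so these absences hold at this depth and cover counting error only. The other members at 0 throughout were COL2A1, COL5A3, COL8A1, COL10A1, COL14A1, COL15A1 and COL21A1.

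**Figure D1:**
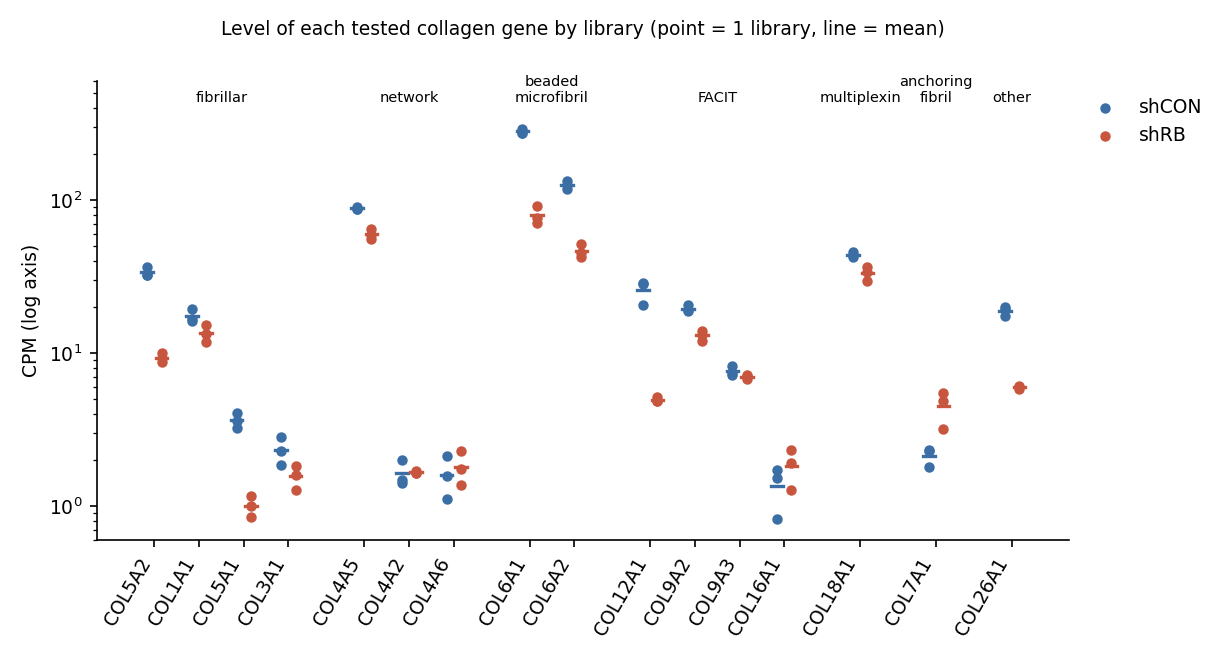
Level of each of the 16 tested collagen genes in each library (CPM, log axis; points are libraries, lines are means of 3, blue shCON and red shRB), grouped by collagen type. The COL6A1 points sit at 275 to 294 in shCON and at 70.3 to 92.1 in shRB, and the groups overlap in COL4A2, COL4A6, COL9A3 and COL16A1.

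With RB knocked down, collagen RNA was less abundant. Summed over the 42 members it was 670.2, 696.8 and 670.9 CPM in shCON and 266.8, 307.4 and 289.4 CPM in shRB, and the groups did not overlap. This left 42.4% of the control sum. COL6A1 and COL6A2 together were left at 31.0% and the other 40 members together at 59.5%. Collagen counts made up 0.068% ± 0.0013 of all counts in shCON and 0.029% ± 0.0015 in shRB (SD, n = 3), a ratio to each library's total that involves no TMM factor.

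Of the 16 tested members, 9 passed as lower in shRB and 1 as higher in the fit over all 11712 tested rows (edgeR, adjusted p under 0.05), while 6 did not pass. Over all tested rows, 12.5% passed as lower and 12.8% as higher. Of the 9, 6 were at least 2-fold lower, against 2.43% of all tested rows. All 3 shRB libraries lay below all 3 shCON libraries in 11 members and above them in 1, against 20.2% (below) and 20.95% (above) of all tested rows. The median log2 fold change was -0.54 over the 16 and -0.01 over all tested rows. The contrast guided the choice of the family, and a gene with few counts can enter the fit through its higher group. COL5A1, counted among the 9 and the 6, entered in this way. These shares are therefore a description, and nothing is read from them.

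**Figure D2:**
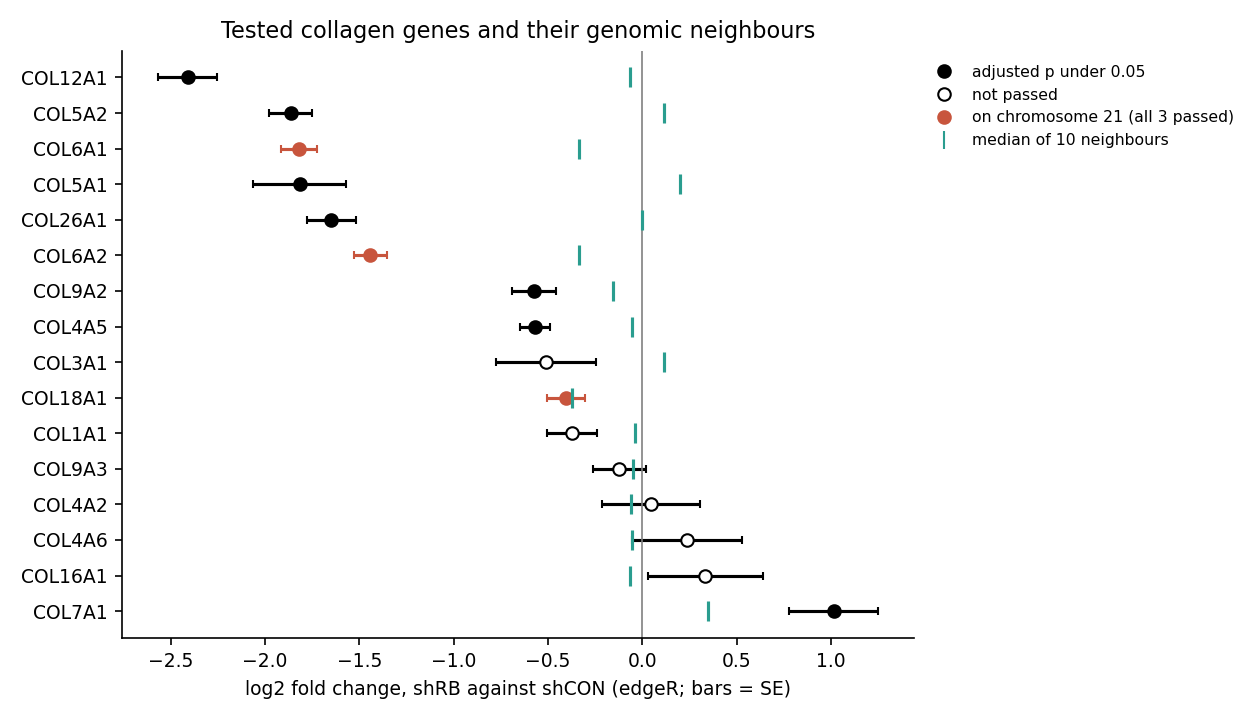
Log2 fold change of each tested collagen gene, shRB against shCON (edgeR; bars are SE; filled points passed, open points did not, red points lie on chromosome 21), with the median of 10 neighbouring tested genes as a green bar. Neighbours are protein-coding genes other than collagens. The 6 genes at the top lie between -2.41 and -1.44, left of the median of their neighbours, and COL18A1 lies close to the median of its own.

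The beaded microfibril chains of collagen VI held the highest levels. COL6A1 (ENST00000361866, chromosome 21) was at 274.8, 293.8 and 275.5 CPM in shCON and at 70.3, 92.1 and 76.9 CPM in shRB. Every shRB library was below every shCON library, and 28.4% of the control mean was left (log2 fold change -1.82 ± 0.09, SE). COL6A2 (ENST00000300527, chromosome 21) was at 119.0, 126.4 and 132.9 CPM in shCON and at 42.5, 51.4 and 45.3 CPM in shRB. It too had no overlap between groups, with 36.8% left (-1.44 ± 0.09). The ratio of COL6A1 to COL6A2 per kb, which does not depend on library size, was 1.89, 1.90 and 1.69 in shCON and 1.35, 1.46 and 1.39 in shRB. COL6A1 thus lost more than its partner chain, and the ratios of the groups did not overlap.

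Among fibrillar collagens, both tested chains of collagen V, which starts and sizes collagen I fibrils, were about equally low in shRB. COL5A2 (ENST00000374866, chromosome 2) was at 36.4, 32.6 and 32.5 CPM in shCON and at 10.01, 8.69 and 9.27 CPM in shRB, with 27.6% left (-1.86 ± 0.12). COL5A1 (ENST00000371817, chromosome 9) was at 3.58, 3.21 and 4.08 CPM in shCON and at 1.00, 0.85 and 1.16 CPM in shRB, with 27.7% left (-1.82 ± 0.24). Neither gene had overlapping groups, although COL5A1 rests on 8 to 12 counts in each shRB library. With so few counts there, COL5A1 would not have entered the fit without its shCON libraries. Its call and its separation are therefore descriptions. The ratio of COL5A2 to COL5A1 per kb was 11.3 ± 1.52 in shCON and 11.3 ± 1.48 in shRB (SD, n = 3), so the lower chain kept its distance from the higher one.

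The other 2 tested fibrillar genes moved less and did not pass. COL1A1 (ENST00000225964, chromosome 17), the main chain of collagen I, was at 16.3, 19.4 and 16.6 CPM in shCON and at 11.7, 15.3 and 13.4 CPM in shRB (-0.37 ± 0.13). COL3A1 (ENST00000304636, chromosome 2), the chain of the thinner fibrils of elastic tissue, was at 1.86, 2.81 and 2.29 CPM in shCON and at 1.27, 1.59 and 1.83 CPM in shRB (-0.51 ± 0.27). In both genes the highest shRB library lay just under the lowest shCON library. COL1A1 passed without shRB 2, at -0.46, and in 3 other settings. Of the other fibrillar members, COL27A1 had 15 counts over shCON and 7 over shRB, COL24A1 had 7 and 5, and COL11A2 had 5 and 6.

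Collagen IV, the basement membrane network, was carried by 1 chain. COL4A5 (ENST00000361603, chromosome X), whose mutations cause Alport kidney disease, was at 90.5, 88.0 and 87.3 CPM in shCON and at 59.1, 55.9 and 64.3 CPM in shRB. The groups did not overlap and 67.4% was left (-0.57 ± 0.08). COL4A6 (ENST00000372216, chromosome X) starts 380 bases away in the opposite direction and was at 1.57, 1.10 and 2.12 CPM in shCON and at 2.27, 1.38 and 1.74 CPM in shRB (0.24 ± 0.29), with overlapping groups. Per kb, COL4A5 exceeded COL4A6 by 42.1 to 81.5 times in the shCON libraries and by 26.6 to 41.4 times in the shRB libraries, although both are read outward from the capital letters shown above. COL4A2 (ENST00000360467, chromosome 13) was at 1.42, 2.01 and 1.47 CPM in shCON and at 1.64, 1.70 and 1.64 CPM in shRB (0.05 ± 0.26), and without shCON 1 its sign turned (-0.11). It forms a second such pair with COL4A1, whose start is 127 bases away and which had 1 count in all.

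The remaining network members were near the limit of detection. COL8A2, of the hexagonal lattice under the corneal endothelium, had 13, 15 and 4 counts in shCON and 5, 4 and 4 in shRB, too few to enter the fit. COL4A3 had 10 counts over shCON and 2 over shRB, and COL4A4 had 11 and 5. COL4A2, COL4A6 and COL16A1, with 109 to 112 counts over the 6 libraries, were the lowest totals to enter it. COL8A2 (45 counts) and COL23A1 (47 counts) were the highest totals that did not.

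The largest difference of any tested member was in a FACIT collagen. COL12A1 (ENST00000322507, chromosome 6), which decorates collagen I fibrils, was at 28.3, 28.8 and 20.6 CPM in shCON and at 4.82, 5.19 and 4.83 CPM in shRB. The groups lay far apart, with 19.1% left (-2.41 ± 0.16). COL9A2 (ENST00000372748, chromosome 1), a chain of cartilage collagen IX, was at 18.8, 19.1 and 20.7 CPM in shCON and at 12.01, 13.99 and 13.1 CPM in shRB (-0.57 ± 0.12). Its partner COL9A3 (ENST00000343916, chromosome 20) was at 7.45, 8.23 and 7.18 CPM in shCON and at 7.19, 7.10 and 6.76 CPM in shRB (-0.12 ± 0.14), with overlapping groups. The ratio of COL9A2 to COL9A3 per kb was 2.24 ± 0.25 in shCON and 1.62 ± 0.14 in shRB (SD, n = 3). COL16A1 (ENST00000373672, chromosome 1) was at 1.52, 1.71 and 0.82 CPM in shCON and at 1.27, 1.91 and 2.32 CPM in shRB (0.33 ± 0.31), also overlapping. The FACIT class therefore held the largest difference next to genes whose groups overlapped.

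Outside these classes, COL26A1 (ENST00000313669, chromosome 7), which encodes a short collagen with an EMI domain, was at 17.6, 19.3 and 19.9 CPM in shCON and at 6.095, 6.04 and 5.79 CPM in shRB. The groups did not overlap and 31.6% was left (-1.65 ± 0.13). COL18A1 (ENST00000400337, chromosome 21), the basement membrane collagen from which endostatin is cut, was at 45.8, 43.6 and 42.4 CPM in shCON and at 29.7, 36.5 and 33.8 CPM in shRB (-0.41 ± 0.10). It had no overlap between groups, but no longer passed without shCON 1 (-0.37) or without shRB 1 (-0.33). COL7A1 (ENST00000328333, chromosome 3), the anchoring fibril collagen, went the other way, at 2.31, 2.31 and 1.80 CPM in shCON and at 3.18, 5.51 and 4.83 CPM in shRB. It was the only tested member that passed as higher (1.01 ± 0.24), with every shRB library above every shCON library. Of the 4 transmembrane collagens none was tested, and the most abundant, COL23A1, had 26 counts over shCON and 21 over shRB.

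**Figure D3:**
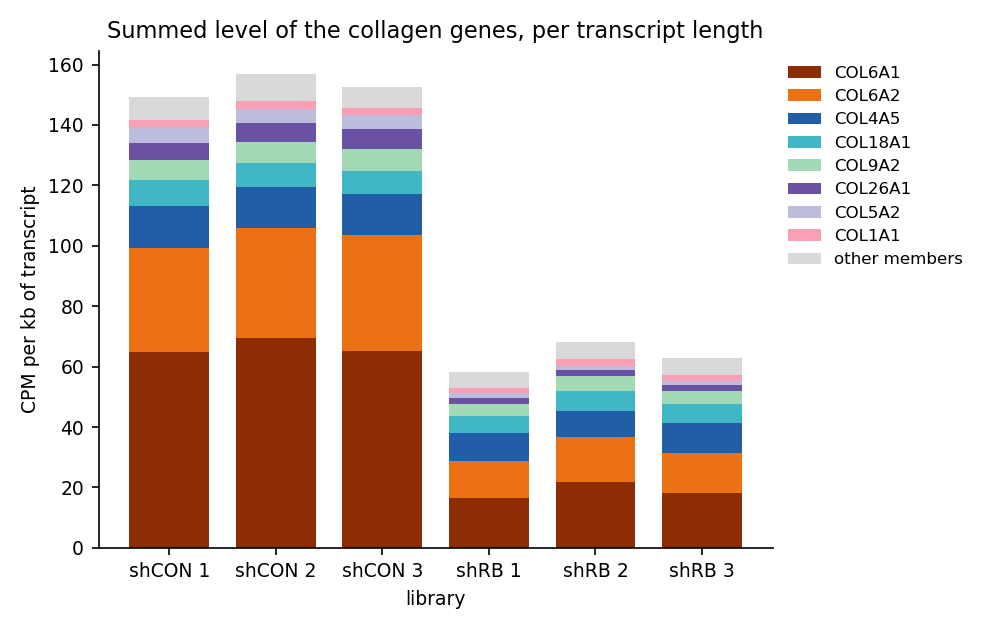
Summed level of the collagen genes per library, in CPM per kb of transcript, with the 8 most abundant members of shCON other than COL9A3 drawn separately and the rest in grey. The bars reach 149.4 to 156.7 in shCON and 58.4 to 68.0 in shRB, and COL6A1 and COL6A2 form 66.4% to 67.8% of the first and 49.5% to 53.8% of the second.

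The make-up of the collagen RNA differed as well as its amount. Per kb, COL6A1 formed 43.4% ± 0.82 of the collagen sum in shCON and 29.8% ± 1.92 in shRB, while COL6A2 formed 23.8% ± 1.16 and 21.2% ± 0.54 (SD, n = 3 for all shares). COL4A5 formed 9.02% ± 0.36 in shCON and 14.8% ± 1.77 in shRB, and COL18A1 5.29% ± 0.30 and 9.71% ± 0.31. COL4A5 and COL18A1, both chains of basement membranes, thus took a larger share of a smaller sum, although the level of each was lower. The same was so for COL9A2, a cartilage chain, at 4.46% ± 0.25 in shCON and 7.23% ± 0.07 in shRB. COL1A1 went from 1.69% ± 0.13 to 3.17% ± 0.17, and COL5A2 from 3.13% ± 0.27 to 2.10% ± 0.31. In the order per kb within shRB, COL9A3 and COL1A1 stood above COL26A1 and COL5A2, whereas in shCON they stood below them. The ranges of COL1A1 and COL26A1 overlapped in shRB.

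All 3 members on chromosome 21 passed as lower, and so did much of that chromosome. Among its 111 tested protein-coding genes the median log2 fold change was -0.38, and 71 passed as lower (64.0%) and 0 as higher by edgeR. On the 21 other autosomes and X the medians ran from -0.07 to 0.15, with 6.48% to 18.1% of genes lower. Chromosome Y, with 9 tested genes, stood at a median of -0.43, with 6 lower and 0 higher by edgeR. COL18A1, at -0.41, ranked 50 from the bottom of the 111. COL6A1 ranked 1 and COL6A2 ranked 3 from the bottom. These 2 genes are neighbours near the end of the chromosome. With collagen genes left out, the 5 nearest tested protein-coding genes on each side of them had a median of -0.33 (-0.54 to -0.08). The difference in COL6A1 and COL6A2 was thus larger than that of the chromosome, and that of COL18A1 was about its size. The part that the chromosome as a whole takes in these 3 values was not tested.

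**Figure D4:**
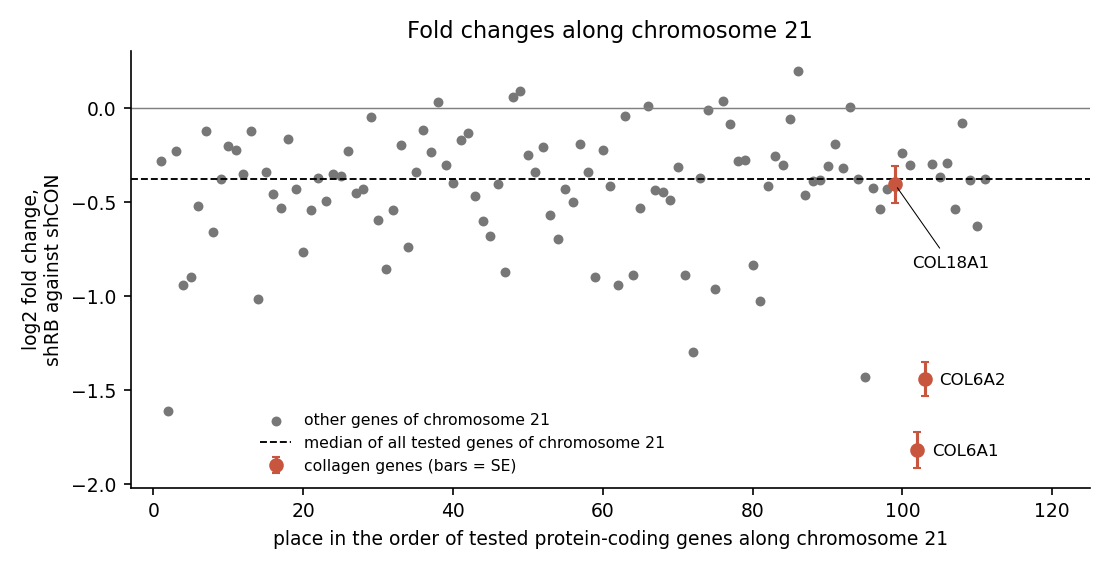
Log2 fold change (shRB against shCON) of the 111 tested protein-coding genes of chromosome 21 in their order along it, with the 3 collagen genes in red (bars are SE) and the median of all as a dashed line. COL18A1 lies on the median of -0.38, while COL6A1 (-1.82) and COL6A2 (-1.44) lie far below it.

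Away from chromosome 21, the lowest members stood far below the median of their neighbours. Neighbours were tested protein-coding genes, with other collagen genes left out. Over the 10 nearest the median was -0.07 around COL12A1 (-0.61 to 1.06) and 0.00 around COL26A1 (-0.42 to 0.34). It was 0.12 around COL5A2 (-1.30 to 1.61) and 0.20 around COL5A1 (-1.89 to 0.32), where the lowest neighbour thus lay slightly below COL5A1 itself. COL5A2 lies next to COL3A1 on chromosome 2, yet they stood at -1.86 and -0.51. Around COL7A1 the median was 0.35, on a chromosome whose median was 0.15, the highest of those compared. The 13 tested members outside chromosome 21 counted 6 lower and 1 higher, with a median of -0.51.

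Genes that process, export or bind collagens were taken as 7 lists of 100 genes by their known roles, but with earlier results of these data known. Of the 100, 98 were in the table and 59 were tested. Of the 59, 16 fell, 7 rose and 36 did not pass (edgeR, adjusted p under 0.05), beside 12.5% of all tested rows lower and 12.8% higher. This is 27.1% lower and 11.9% higher, so the share that rose was near that of all rows. Because earlier results were known when the lists were made, these shares and the p-values of single companion genes are descriptions. Their median log2 fold change was -0.08, against -0.01 over all rows. Without shCON 3, 10 fell.

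Among enzymes and chaperones of collagen modification and folding, 7 of 16 tested members fell, 3 rose and 6 did not pass (median -0.24). SERPINH1, which encodes the collagen-specific chaperone HSP47, was at 3.83, 4.01 and 4.41 CPM in shCON and at 0.91, 0.74 and 0.87 CPM in shRB (-2.23 ± 0.24, SE; edgeR adjusted p = 2.2e-05). With so few counts in shRB, SERPINH1 entered the fit only through its shCON libraries, so its p-value is a description. COLGALT2, which adds galactose to hydroxylysine, fell from 5.02 ± 0.38 to 2.04 ± 0.37 CPM (edgeR adjusted p = 0.00039). CRTAP, of the prolyl 3-hydroxylation complex, rose from 122.1 ± 3.83 to 184.2 ± 10.8 CPM (SD, n = 3; edgeR adjusted p = 7.5e-05). P4HA1, a catalytic subunit of prolyl 4-hydroxylase that was named after its values were seen, fell from 114.2 ± 9.03 to 73.3 ± 2.03 CPM (SD, n = 3; edgeR adjusted p = 8.3e-05). Members at low and at higher levels were thus among those that fell. The most abundant of the list, P4HB, PPIB and FKBP10, were named after their values were seen and did not pass. Their log2 fold changes were 0.05, 0.18 and 0.01.

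Of 10 tested genes for export of procollagen from the endoplasmic reticulum, 1 rose and 1 fell, and 8 missed the threshold (median 0.08). A coat protein gene SEC23B rose from 243.0 ± 5.76 to 298.5 ± 6.35 CPM (SD, n = 3; edgeR adjusted p = 0.0057). MIA3, the cargo receptor that loads procollagen, fell from 163.1 ± 11.998 to 129.0 ± 22.4 CPM (edgeR adjusted p = 0.039), and it no longer passed without any 1 of the shCON libraries (-0.28, -0.38 and -0.34 without shCON 1, 2 and 3). Its log2 fold change was -0.34 ± 0.11 (SE) with all libraries and -0.20 without shRB 2.

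Of 8 tested genes for propeptide cleavage and crosslinking, 2 fell and 1 rose, and 5 missed the threshold (median -0.04). The tolloid-like proteinase genes TLL1 and TLL2 were the 2 that fell. BMP1, also listed for propeptide cleavage and named after its values were seen, did not pass. The log2 fold change of BMP1 was -0.03 ± 0.11 (SE). TLL1 was at 151.3, 127.6 and 142.99 CPM in shCON and at 53.5, 36.0 and 53.3 CPM in shRB (-1.56 ± 0.13; edgeR adjusted p = 1.7e-06). TLL2 fell from 6.04 ± 1.36 to 2.90 ± 0.42 CPM, and ADAMTS3, a procollagen N-proteinase, rose from 0.69 ± 0.39 to 1.85 ± 0.14 CPM (SD, n = 3; edgeR adjusted p = 0.0015 and 0.0043). With few counts in shCON, ADAMTS3 entered the fit only through its shRB libraries, so its p-value is a description. Among the crosslinking lysyl oxidases, LOXL1 and LOXL3, which were named after their values were seen, had log2 fold changes of -0.88 ± 0.35 and 0.08 ± 0.14 (SE), and neither passed.

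Of 4 tested collagen receptors, 1 fell and 3 did not pass (median -0.44). DDR2, a receptor kinase for fibrillar collagen, fell from 1.48 ± 0.29 to 0.65 ± 0.15 CPM (edgeR adjusted p = 0.033), and lost its call under DESeq2 and with any 1 library left out except shRB 2. Its few counts let DDR2 enter the fit only through its shCON libraries, so its p-value is a description. The integrin subunit ITGA2 was at 7.28 ± 0.37 and 4.88 ± 1.65 CPM (SD, n = 3; log2 fold change -0.58; edgeR adjusted p = 0.054). It passed in 5 of 14 other settings, among them without shRB 3 (-0.83), and stood at -0.36 without shRB 2. Of 5 tested genes of collagen breakdown, the membrane-type metalloproteinase MMP15 rose from 121.6 ± 8.74 to 226.8 ± 30.1 CPM, its relative MMP16 fell from 264.2 ± 21.8 to 184.6 ± 21.3 CPM, and 3 did not pass (edgeR adjusted p = 1.9e-05 and 0.0013; list median -0.06).

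Of 4 tested basement membrane and matrix partners, fibronectin FN1 rose from 130.0 ± 9.27 to 180.0 ± 14.2 CPM (edgeR adjusted p = 0.0011) and 3 did not pass, among them perlecan HSPG2 at 20.3 ± 3.38 and 16.7 ± 0.55 CPM (SD, n = 3; edgeR adjusted p = 0.13). Fibronectin, a matrix protein on which collagen is laid down, thus moved opposite to most collagens. Of 12 tested genes of TGF-beta signalling, a known inducer of collagen genes, 4 fell, 0 rose and 8 did not pass (median -0.19). LTBP2, of the latent TGF-beta binding protein family, fell from 13.8 ± 0.47 to 7.29 ± 0.39 CPM, and the signal transducer SMAD3 from 21.5 ± 1.94 to 14.5 ± 1.09 CPM (SD, n = 3; edgeR adjusted p = 0.00017 and 0.0030).

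**Figure D5:**
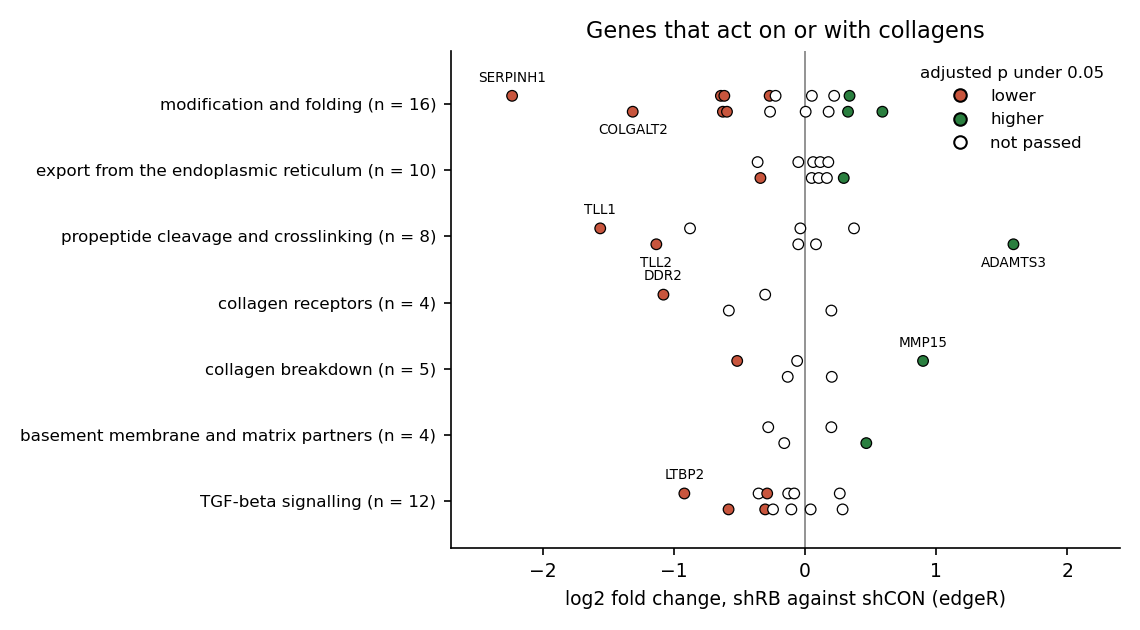
Log2 fold change (shRB against shCON, edgeR) of the 59 tested companion genes in 7 lists, with genes that fell in red, genes that rose in green and genes that did not pass in white. SERPINH1 (-2.23) and TLL1 (-1.56) lie farthest to the left and ADAMTS3 (1.59) farthest to the right.

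Reads could be shared with overlapping genes, since use of strand in the counting is not given in the sources used here. The exons of COL18A1 overlap those of SLC19A1 on the opposite strand (log2 fold change -0.24) and those of COL9A3 overlap TCFL5 (-0.25), which leaves their counts uncertain. COL16A1 and COL4A2 overlap antisense RNAs. In shRB 2, 12 of the 16 tested members lay above their group mean, against 5 in shRB 1 and 8 in shRB 3. Without shRB 2, 10 members passed as lower and 1 as higher.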

How the data were processed

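RNA was sequenced from 6 LNCaP libraries (3 shRB, 3 shCON) prepared with TruSeq reagents, as the labels' protocols state. The authors deposited raw read counts, whole numbers per transcript ID with no normalisation. The submitters' processing notes name STAR, HOMER and edgeR with the build hg19. Which annotation was used, how reads were assigned and whether strand counted is not given in the sources used here. Names, chromosomes, gene order, exon overlaps and transcript lengths came from GENCODE release 29, which matched 22182 of 22279 IDs; the 97 others held 0.38% of the counts and stayed in library totals.

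All rows were fitted together in R 4.3.3 with edgeR 4.0.16: filterByExpr (minimum count 10, minimum total 15), TMM, and the quasi-likelihood F test with group as the only term, Benjamini-Hochberg adjusted over the 11712 rows tested, with a threshold of 0.05. The SE is the size of the log2 fold change divided by the square root of F. CPM is the count scaled to the TMM-adjusted total, and CPM per kb divides it by transcript length. The procedure was tested on simulated data.

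Members and lists were chosen with earlier results of these data known. Every tested collagen gene is named, and of each companion list the 2 genes with the smallest p and any further gene that passed with a log2 fold change of at least 1 in size. P4HA1, P4HB, PPIB, FKBP10, BMP1, LOXL1 and LOXL3 were named outside this rule, after their values were seen. Alternatives were DESeq2 1.42.0, limma-voom (limma 3.58.1), 3 other scalings, 2 other filters, a block for the replicate number, and each library left out.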

Additional observations from a re-analysis of the deposited data

How the results depend on the processing

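Over 14 other settings, the 16 collagen genes gave 224 values, of which 217 kept their direction and their side of the threshold. COL18A1 lost its call in 2, COL1A1 gained one in 4, and COL4A2 changed sign in 1 (-0.11 without shCON 1, the lowest of its leave-one-out range, which reached 0.21). With 1 library left out, 8 to 10 collagens passed as lower and 1 as higher. Their median ranged from -0.58 to -0.44, and it was -0.30 with no filter on low counts, where more low-count members enter. Companion genes counted 10 to 20 lower and 5 to 10 higher with 1 library left out, and 23 lower and 7 higher with no filter, and RB1 ranged from -3.56 to -3.27. The chromosome 21 median ranged from -0.39 to -0.37, and the medians of the 10 neighbours of COL6A1 and COL6A2 from -0.43 to -0.30 and of COL18A1 from -0.43 to -0.33. Over all rows, 912 to 1956 passed as lower and 863 to 2074 as higher with 1 library left out, against 1459 and 1499 with all libraries. The counts were 912 and 863 without shCON 1, 964 and 969 without shCON 3, and 1956 and 2074 without shRB 2.

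Whether the replicate numbers pair the libraries was not resolved. Deviations from the group means correlated at 0.24, 0.35 and -0.0003 for numbers 1 to 3. The value for number 2 was the highest of any pair, while shCON 1 correlated best with shRB 3 (0.27). With the replicate number as a block, 10 collagens passed as lower and 1 as higher, companion genes counted 24 lower and 10 higher against 16 and 7, and over all rows 2294 passed as lower and 2202 as higher against 1459 and 1499. ITGA2 and COL1A1 passed with the block. Depth limits the 26 untested members, none of which had more than 15 counts in a library.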
